A study of Mus musculus with 12 samples.

Results

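The tripartite motif (Trim) genes were examined in newly made RNA of mouse macrophages. Members were all genes whose symbol in the probe annotation starts with Trim followed by a digit and that have a probe set naming that gene alone, whatever their values. This rule gave 59 genes of the 19937 genes tested, each measured by 1 probe set. Values are log2 expression levels, so a difference of 1 is a 2-fold change, and levels of different genes are not compared because each rests on its own probes.

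The 12 arrays fell into 4 groups of 3. Bone marrow-derived macrophages (BMM) came from C57BL/6 mouse bone marrow and were grown in DMEM with serum and the growth factor M-CSF. The MPI-2 macrophages, which renew themselves in culture, were derived from C57BL/6 fetal liver, depend on the growth factor GM-CSF and were grown in RPMI with serum. MPI-2 is 1 line, so its arrays do not show how far other lines would differ. Each cell type was mock-treated or given R-form lipopolysaccharide (LPS), the outer-membrane glycolipid of Gram-negative bacteria that Toll-like receptor 4 senses. In all 4 groups, RNA made during 60 min was tagged with 4-thiouridine (4sU) and purified. With LPS the tagging ran from 30 to 90 min after the stimulus, so a response here is one in transcription during that window. Cell type goes together with growth factor and medium, and these cannot be told apart. The replicates are called biological in the titles, but no separate animals or cultures are named, so p-values measure the spread between these arrays.

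Trim proteins carry a RING finger, 1 or more B-boxes and a coiled coil, followed by a C-terminal domain that differs between subfamilies. The RING finger makes most of them E3 ubiquitin ligases, which attach ubiquitin to chosen proteins. In macrophages many are known as parts of antiviral defence: some bind viral capsids or antibody-coated virus, and others tune the signalling routes from pattern sensors to type I interferon and NF-kB. Several are themselves induced by interferon. Others work far from immunity, as nuclear co-repressors, at microtubules or in muscle.

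A level of 3.36 served as background, the 95th percentile of the mean levels of 1027 olfactory receptor genes, which macrophages are not known to use. By their mean over the 12 arrays 38 Trim genes lay above it and 21 did not. Arrays of a group correlated over all genes at 0.975 to 0.989 in BMM and at 0.994 to 0.996 in MPI-2. The median SD of a Trim gene was 0.176 in BMM mock, 0.204 in BMM LPS, 0.119 in MPI-2 mock and 0.128 in MPI-2 LPS. The fit used 1 spread per gene for all groups, so a gene has the same SE for both LPS responses. The interquartile range of an array's values was 2.34 to 2.74 in BMM LPS against 2.80 to 2.93 in BMM mock. For MPI-2 arrays it was 3.10 to 3.22 with LPS and 3.27 to 3.47 in mock. The ranges were thus wider in MPI-2 than in BMM, and their part in the results was not tested beyond the scaling alternatives. All 10 macrophage markers were above background in all groups, with array means of 8.09 to 9.07. Marker lists of 8 other cell types had array means of 2.37 to 4.23, highest for fibroblasts, of whose 4 markers 2 to 3 were above background. In bulk RNA, fewer cells of a type and less RNA per cell cannot be told apart.

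LPS moved Trim genes both ways in BMM and mostly downward in MPI-2. In BMM, 13 of 59 Trim genes were higher with LPS (22% of them, against 10.3% of all genes) and 14 were lower (23.7%, against 15.4%). In MPI-2, 2 were higher (3.39%, against 5.17%) and 11 were lower (18.6%, against 9.58%). The median difference over the 59 was 0.07 in BMM and -0.06 in MPI-2, beside 0.04 and 0.02 over all genes. Of the changes called in BMM, 7 increases and 2 decreases reached 2-fold, as did 3.88% and 5.27% of all genes. In MPI-2, 1 increase and 5 decreases did, beside 1.85% and 2.28% of all genes.

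The members were then sorted by both responses. Trim13 and Trim36 were higher with LPS in both cell types (2.59% of all genes were), and 8 genes (Trim8, Trim27, Trim28, Trim37, Trim41, Trim47, Trim59 and Trim65) were lower in both (13.6% of members, against 5.2% of all genes). Trim14 was the member higher in BMM and lower in MPI-2, as were 0.697% of all genes. A further 10 were called higher in BMM with no call in MPI-2 (16.9%, against 7.01%), and 6 were called lower in BMM with no call in MPI-2 (10.2%, against 9.81%). The remaining members were 2 called lower in MPI-2 with no call in BMM (3.39%, against 3.69%) and 30 with no call in either (50.8%, against 68.4%). A call in 1 cell type and none in the other does not show a difference, so the difference itself was tested. The response of MPI-2 minus that of BMM was negative for 10 of 59 (16.9%, against 6.27% of all genes) and positive for 1 (1.69%, against 7.08%). For the 8 genes lower in both cell types it ran from -0.15 to 0.28, with adjusted p of 0.381 to 0.986.

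**Figure D1:**
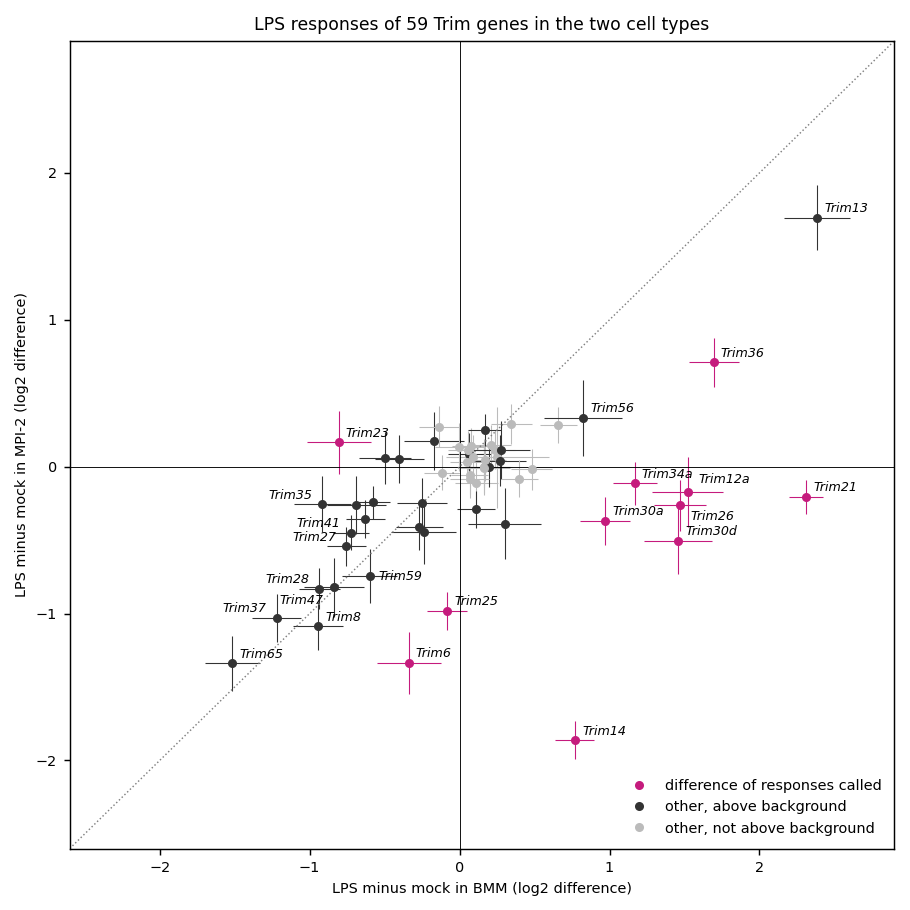
LPS minus mock as a log2 difference in BMM (horizontal) and in MPI-2 (vertical) for each of the 59 Trim genes, with bars of 1 SE and the dotted line at equal responses. The 11 genes called for the difference of responses are in magenta; 10 lie below the line, Trim14 lowest at 0.77 and -1.86, and Trim23 lies above it.

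Antiviral Trim genes of chromosome 7 were taken as a list, and most of them responded less to LPS in MPI-2. Of 18 listed symbols, older names included, 8 were measured by a probe set of their own: Trim6, Trim12a, Trim12c, Trim21, Trim30a, Trim30d, Trim34a and Trim68. The pseudogene Trim30e-ps1 was not among them. By the coordinates given below, Trim21 lies apart from the stretch that holds Trim34a, Trim12a, Trim12c, Trim30a and Trim30d. With LPS in BMM 5 were higher (10.3% of all genes were) and 1 was lower (15.4%), with a median difference of 1.07. In MPI-2 limma called 0 of the 8 higher (0 at an unadjusted p under 0.05) and 1 lower (all genes: 5.17% and 9.58%), with a median of -0.23. A lower response in MPI-2 was called for 6 of the 8, against 6.27% of all genes.

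Trim21 is a cytosolic antibody receptor and ubiquitin ligase that targets antibody-coated virus. It measured 6.84, 6.94 and 6.88 in BMM mock and 9.12, 9.25 and 9.22 in BMM LPS. In MPI-2 it measured 6.33, 6.28 and 6.56 in mock and 6.21, 6.22 and 6.12 with LPS. All 3 BMM LPS arrays stood more than 2 log2 units above every other array. The increase in BMM was 2.31 ± 0.115 (SE, adjusted p = 6.66e-10), and the change of -0.21 in MPI-2 was not called (adjusted p = 0.325). The difference of responses was -2.52 ± 0.162 (adjusted p = 6.00e-08).

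Trim30a is a mouse protein reported to restrain NF-kB signalling after Toll-like receptors are engaged. Its levels were 8.76, 9.25 and 9.37 in BMM mock and 9.97, 10.09 and 10.23 in BMM LPS. In MPI-2 they were 6.17, 6.56 and 6.34 in mock and 6.14, 5.81 and 6.02 with LPS. The BMM groups did not overlap, the MPI-2 arrays were all below both, and LPS arrays of MPI-2 were all below its mock arrays. The increase in BMM was 0.97 ± 0.164 (adjusted p = 0.000307), the change of -0.37 in MPI-2 was not called (adjusted p = 0.179; called with array weights, at -0.35, and when the 6 MPI-2 arrays were fitted alone), and the difference of responses was -1.34 ± 0.232 (adjusted p = 0.000907). After a further quantile normalization that difference was -0.88 and still called.

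Trim30d, a close relative of Trim30a, read 7.26, 7.89 and 8.02 in BMM mock and 8.96, 9.02 and 9.57 in BMM LPS. Its MPI-2 values were 4.02, 4.38 and 4.32 in mock and 4.17, 3.64 and 3.40 with LPS, the lowest just above background. The BMM groups were separate, while the MPI-2 groups overlapped. LPS raised it in BMM by 1.46 ± 0.228 (adjusted p = 0.000149), and the responses differed by -1.96 ± 0.322 (adjusted p = 0.00058). The related pseudogene Trim30e-ps1 stayed near or under background, with 3.02 to 3.35 in BMM mock and 3.56 to 3.86 in BMM LPS. Its increase of 0.48 ± 0.138 (adjusted p = 0.0166) was 0.40 without BMM mock replicate 3 and 0.38 without BMM LPS replicate 1, called in neither, and closely similar copies of this family may share signal.

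Trim34a and Trim12a belong to the group of mouse genes related to Trim5, whose primate counterpart blocks incoming retrovirus capsids. Trim34a was 6.71, 6.40 and 6.80 in BMM mock, 7.91, 7.54 and 7.96 in BMM LPS, 4.96, 4.83 and 5.08 in MPI-2 mock and 4.88, 4.93 and 4.72 in MPI-2 LPS. It was higher with LPS in all BMM arrays, by 1.17 ± 0.146 (adjusted p = 1.61e-05), and its MPI-2 groups overlapped. The difference of responses was -1.28 ± 0.206 (adjusted p = 0.000484).

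Trim12a was 5.22, 6.10 and 5.77 in BMM mock, 6.89, 7.13 and 7.62 in BMM LPS, 3.77, 4.07 and 3.80 in MPI-2 mock and 4.01, 3.27 and 3.83 in MPI-2 LPS. The BMM groups were again separate and the MPI-2 groups overlapped around a level just above background. Its increase in BMM was 1.52 ± 0.236 (adjusted p = 0.000141) and its difference of responses -1.69 ± 0.334 (adjusted p = 0.00265). Trim12c, its neighbour, varied widely in BMM mock (3.10, 4.77 and 4.34) and read 3.78, 4.36 and 4.82 in BMM LPS, so those groups overlapped. All Trim12c values in MPI-2 were under background, at 2.31, 2.35 and 2.53 in mock and 2.22, 2.21 and 2.95 with LPS.

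Trim6, a ligase linked to interferon signalling through unanchored ubiquitin chains, went against most of this list. It measured 4.33, 4.41 and 4.62 in BMM mock and 4.60, 4.27 and 3.48 in BMM LPS, against 6.09, 6.04 and 5.90 in MPI-2 mock and 4.69, 4.49 and 4.83 in MPI-2 LPS. The MPI-2 mock arrays were the highest, and LPS lowered them by 1 log2 unit or more in every pairing of arrays. The fall in MPI-2 was -1.34 ± 0.212 (adjusted p = 0.00036). The difference of responses, -0.997 ± 0.300 (adjusted p = 0.0382), lost its call when any 1 of 10 arrays was left out, with values of -0.76 to -1.08, and after a further quantile normalization (-0.78). Trim68 was the listed gene called lower in BMM, from 4.30, 4.62 and 5.14 to 3.99, 3.93 and 4.08. Its change of -0.69 ± 0.198 (adjusted p = 0.0167) was -0.46 and not called without BMM mock replicate 3.

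**Figure D2:**
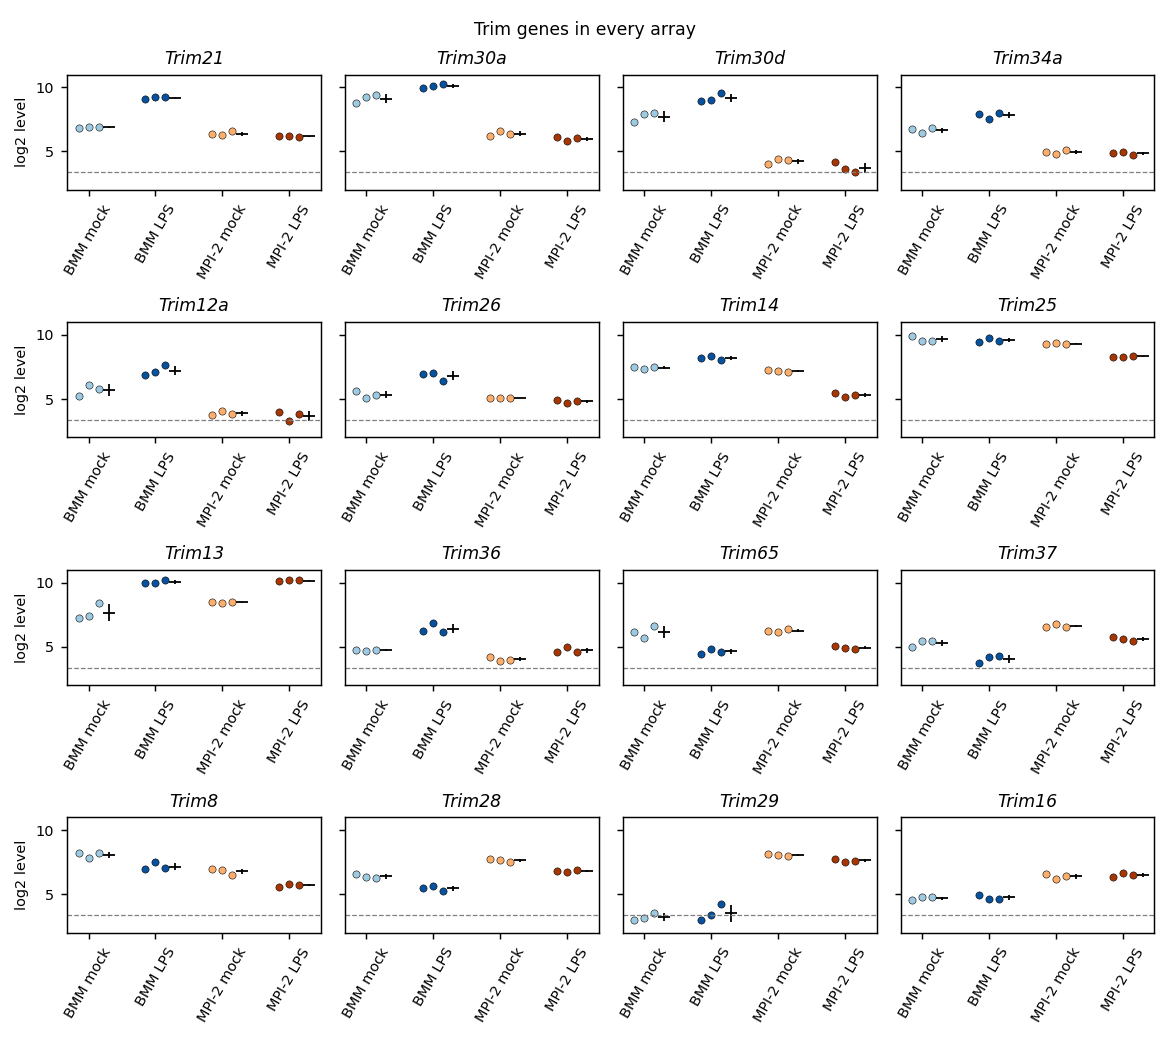
Log2 level of 16 Trim genes in each of the 12 arrays, with points for arrays, a short line for the group mean, a vertical bar for 1 SD (n = 3) and a dashed line at the background of 3.36. The BMM LPS points of Trim21 lie at 9.12 to 9.25 with all other groups under 7, whereas Trim13 rises in both cell types and Trim29 is high in the MPI-2 arrays.

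Promoter windows are shown here because 6 genes that were higher with LPS in BMM hold the same short motif near their start. RefSeq's table for GRCm38.p6 held a window, from 250 bases before to 50 after the start, for 46 of the 59 members, matched by symbol. The interferon-stimulated response element, the motif bound by interferon regulatory factors, was searched for on both strands and was in the windows of 8 of the 46 (17.4%). It was in 3.99% of 27025 genes and in 3.44% of 32851 windows overall. Of the 9 matched members higher with LPS in BMM 6 held it, and of the other 37 it was found in 2, Trim2 and Trim12c. The NF-kB consensus was in 4 of the 46 (8.7%, against 9.55% of genes), and the STAT motif TTCNNNGAA in 5 (10.9%, against 9.55% of genes). Of the genes with the NF-kB consensus, Trim13 was higher with LPS in both cell types and Trim28 lower in both. Trim7 and Trim46 were called in neither. A match is a description of these letters and not evidence of a bound site.

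Each stretch below runs 5′ to 3′ on the gene's own strand, from 100 bases before to 30 after the start, with every match to the interferon element in capitals, on either strand. In Trim21, on the minus strand at chr7:102565453-102565582, 2 overlapping matches lie 14 to 29 bases after the start. Trim34a is on the plus strand at chr7:104244357-104244486, with its match 11 to 20 bases after the start.
Trim21: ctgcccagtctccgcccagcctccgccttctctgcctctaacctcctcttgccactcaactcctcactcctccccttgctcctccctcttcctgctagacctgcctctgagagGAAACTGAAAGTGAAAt
Trim34a: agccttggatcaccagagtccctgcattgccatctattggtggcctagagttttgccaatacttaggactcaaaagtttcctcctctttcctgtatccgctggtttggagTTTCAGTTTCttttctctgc

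Trim12a (chr7:104315466-104315595) and Trim12c (chr7:104353320-104353449), both on the minus strand, are shown together because they share an unbroken run of 63 bases that contains the match, although Trim12a was higher with LPS in BMM and Trim12c was not called. The match lies 11 to 20 bases after the annotated start of Trim12a and 29 to 20 bases before that of Trim12c.
Trim12a: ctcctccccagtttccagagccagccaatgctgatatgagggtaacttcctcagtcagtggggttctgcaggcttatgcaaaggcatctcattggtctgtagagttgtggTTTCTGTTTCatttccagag
Trim12c: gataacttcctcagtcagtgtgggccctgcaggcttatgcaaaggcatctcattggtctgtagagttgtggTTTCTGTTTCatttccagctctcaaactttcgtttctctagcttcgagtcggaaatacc

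Trim30a (chr7:104465164-104465293) and Trim30d (chr7:104507820-104507949), also on the minus strand, are near copies here: 125 bases align with 1 mismatch, an identity of 99.2%. In the windows printed, the match lies 36 to 27 bases before the start of Trim30a and 41 to 32 bases before that of Trim30d. A further annotated start of Trim30a, not printed, has a match 3 to 12 bases after it.
Trim30a: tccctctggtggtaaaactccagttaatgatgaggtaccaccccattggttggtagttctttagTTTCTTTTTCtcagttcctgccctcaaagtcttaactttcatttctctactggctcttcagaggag
Trim30d: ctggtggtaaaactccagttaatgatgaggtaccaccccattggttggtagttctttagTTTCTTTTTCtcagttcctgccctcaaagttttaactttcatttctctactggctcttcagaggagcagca

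Trim26 is the gene outside chromosome 7 that was higher with LPS in BMM and held the motif. Its 2 overlapping matches lie 160 to 145 bases before the start, so the stretch from 200 to 101 bases before it is given, on the plus strand at chr17:36836946-36837045.
Trim26: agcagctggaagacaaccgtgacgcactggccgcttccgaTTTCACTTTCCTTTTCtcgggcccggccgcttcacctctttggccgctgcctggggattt

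Among 22 measured Trim genes listed as regulators of innate signalling, LPS raised 4 and lowered 9 in BMM (all genes: 10.3% and 15.4%), and raised 1 and lowered 7 in MPI-2 (all genes: 5.17% and 9.58%). Trim21 and Trim30a, both higher with LPS in BMM, were counted with the chromosome 7 genes and not here, so the balance depends on how genes were listed. Trim26, a ligase linked to the turnover of interferon regulatory factors in the nucleus, measured 5.66, 5.06 and 5.33 in BMM mock and 6.97, 7.07 and 6.42 in BMM LPS. In MPI-2 it measured 5.08, 5.11 and 5.08 in mock and 4.89, 4.71 and 4.88 with LPS. The increase in BMM was 1.47 ± 0.173 (adjusted p = 8.69e-06), and the responses differed by -1.73 ± 0.244 (adjusted p = 0.000141). Its BMM groups did not overlap.

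Trim14, an adaptor without a RING finger that works with the mitochondrial antiviral protein MAVS, moved in opposite directions. It was 7.49, 7.31 and 7.53 in BMM mock and 8.17, 8.38 and 8.09 in BMM LPS, and 7.26, 7.18 and 7.09 in MPI-2 mock and 5.50, 5.15 and 5.30 in MPI-2 LPS. The mock levels of both cell types lay close together, and the LPS arrays separated from them upward in BMM and downward in MPI-2. The changes were 0.77 ± 0.129 (adjusted p = 0.000294) in BMM and -1.86 ± 0.129 (adjusted p = 9.65e-08) in MPI-2. Their difference of -2.63 ± 0.183 (adjusted p = 1.30e-07) was the largest among the Trim genes.

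Trim25, the ligase that activates the RNA sensor RIG-I, was 9.94, 9.53 and 9.54 in BMM mock and 9.48, 9.76 and 9.52 in BMM LPS. In MPI-2 it was 9.32, 9.34 and 9.26 in mock and 8.32, 8.28 and 8.38 with LPS. The BMM groups overlapped, and the MPI-2 LPS arrays lay well below all others. The change was -0.08 in BMM (adjusted p = 0.701) and -0.98 ± 0.132 in MPI-2 (adjusted p = 8.36e-05), with a difference of -0.90 ± 0.187 (adjusted p = 0.00381). After a further quantile normalization the BMM change was -0.43 and called (adjusted p = 0.0364).

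Trim56, linked to antiviral sensing of cytosolic DNA, was 7.71, 6.90 and 6.93 in BMM mock and 8.34, 8.23 and 7.43 in BMM LPS, groups that overlapped. Its increase of 0.82 ± 0.261 (adjusted p = 0.0293) was not called when BMM mock replicate 2 or 3 was left out (0.68 and 0.70), nor when BMM LPS replicate 1 or 2 was (0.65 and 0.71), nor after a further quantile normalization (0.71). It was 1.37 with 1 array of each group left out (mock replicate 1, LPS replicate 3). In MPI-2 Trim56 read 6.23, 5.37 and 5.90 in mock and 6.18, 6.07 and 6.24 with LPS, also overlapping.

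Trim13, a ligase anchored in the endoplasmic reticulum and linked to protein degradation there, rose in both cell types. It measured 7.22, 7.37 and 8.40 in BMM mock and 9.98, 9.96 and 10.19 in BMM LPS. In MPI-2 it measured 8.48, 8.43 and 8.48 in mock and 10.11, 10.19 and 10.18 with LPS. With LPS the cell types reached about the same level, and neither pair of groups overlapped. The increases were 2.38 ± 0.222 (adjusted p = 7.11e-07) in BMM, a size close to that of Trim21, and 1.69 ± 0.222 (adjusted p = 6.49e-05) in MPI-2.

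Trim65, a ligase of the RNA sensor MDA5, fell in both cell types. Its levels were 6.16, 5.69 and 6.58 in BMM mock and 4.43, 4.85 and 4.61 in BMM LPS, and 6.21, 6.17 and 6.38 in MPI-2 mock and 5.05, 4.91 and 4.79 in MPI-2 LPS. The mock and LPS arrays were separate in each, with changes of -1.51 ± 0.185 (adjusted p = 1.26e-05) and -1.34 ± 0.185 (adjusted p = 0.000106).

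Trim8, a ligase that promotes NF-kB signalling, measured 8.25, 7.84 and 8.22 in BMM mock and 6.95, 7.49 and 7.03 in BMM LPS. In MPI-2 it measured 6.95, 6.87 and 6.55 in mock and 5.61, 5.78 and 5.72 with LPS. It fell by a like amount in both, -0.94 ± 0.164 (adjusted p = 0.000398) and -1.09 ± 0.164 (adjusted p = 0.000238), without overlap.

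Trim27, the Ret finger protein, measured 6.19, 6.30 and 6.27 in BMM mock and 5.26, 5.66 and 5.57 in BMM LPS. In MPI-2 it measured 7.59, 7.39 and 7.50 in mock and 7.12, 6.88 and 6.85 with LPS. The BMM change was -0.76 ± 0.131 (adjusted p = 0.000388). The MPI-2 change of -0.54 ± 0.131 (adjusted p = 0.00923) was -0.50 without MPI-2 mock replicate 1 and -0.49 without MPI-2 LPS replicate 3, called in neither, though the groups were separate.

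Trim23, which carries a GTPase domain in place of the usual C-terminal domain, was the gene whose response was higher in MPI-2. It was 5.10, 6.27 and 5.82 in BMM mock and 4.97, 4.80 and 4.999 in BMM LPS, and 4.92, 5.16 and 5.10 in MPI-2 mock and 5.24, 5.08 and 5.35 in MPI-2 LPS. The BMM mock arrays spread over more than 1 log2 unit, and their values all lay above those with LPS. The change in BMM was -0.81 ± 0.212 (adjusted p = 0.0100), which was -0.54 and still called without BMM mock replicate 2, and it was not called after quantile normalization (-0.58) or cyclic loess (-0.53). The difference of responses, 0.97 ± 0.300 (adjusted p = 0.0435), lost its call without any 1 of 10 arrays, with values of 0.70 to 1.04.

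Trim35 fell in BMM, from 7.41, 7.17 and 7.39 to 6.61, 6.76 and 5.85, by -0.92 ± 0.189 (adjusted p = 0.00167), and by -0.60 with mock replicate 1 and LPS replicate 3 of BMM both left out. In MPI-2 it was 7.33 to 7.66 in mock and 7.14 to 7.29 with LPS, with no call. Trim41 changed by -0.73 ± 0.119 in BMM (adjusted p = 0.000227) and by -0.45 ± 0.119 in MPI-2 (adjusted p = 0.0160). The MPI-2 call ended when mock replicate 1 (-0.42), mock replicate 3 (-0.44) or LPS replicate 1 (-0.41) was left out, and after a further quantile normalization (-0.38) or cyclic loess (-0.37). Both genes encode RING ligases, and their BMM groups were separate.

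Trim59, a membrane-anchored member, changed by -0.60 ± 0.185 in BMM (adjusted p = 0.0254), where groups overlapped, and by -0.74 ± 0.185 in MPI-2 (adjusted p = 0.0110). The BMM call ended when mock replicate 2 or 3 (-0.49 and -0.46) or LPS replicate 1 or 2 (-0.57 for each) was left out, and the change was -0.91 with mock replicate 1 and LPS replicate 3 of BMM both left out. The MPI-2 change was -0.67 when mock replicate 2 was left out and -0.62 when LPS replicate 2 was, called in neither. Trim62 changed by -0.50 ± 0.175 in BMM (adjusted p = 0.0483), with -0.28 and no call without BMM mock replicate 1. Leaving out any 1 of 8 further arrays also ended the Trim62 call, with values of -0.40 to -0.50, as did a further quantile normalization (-0.37) and cyclic loess (-0.41). Cyclic loess also ended the Trim59 call in BMM (-0.40) and in MPI-2 (-0.62).

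**Figure D3:**
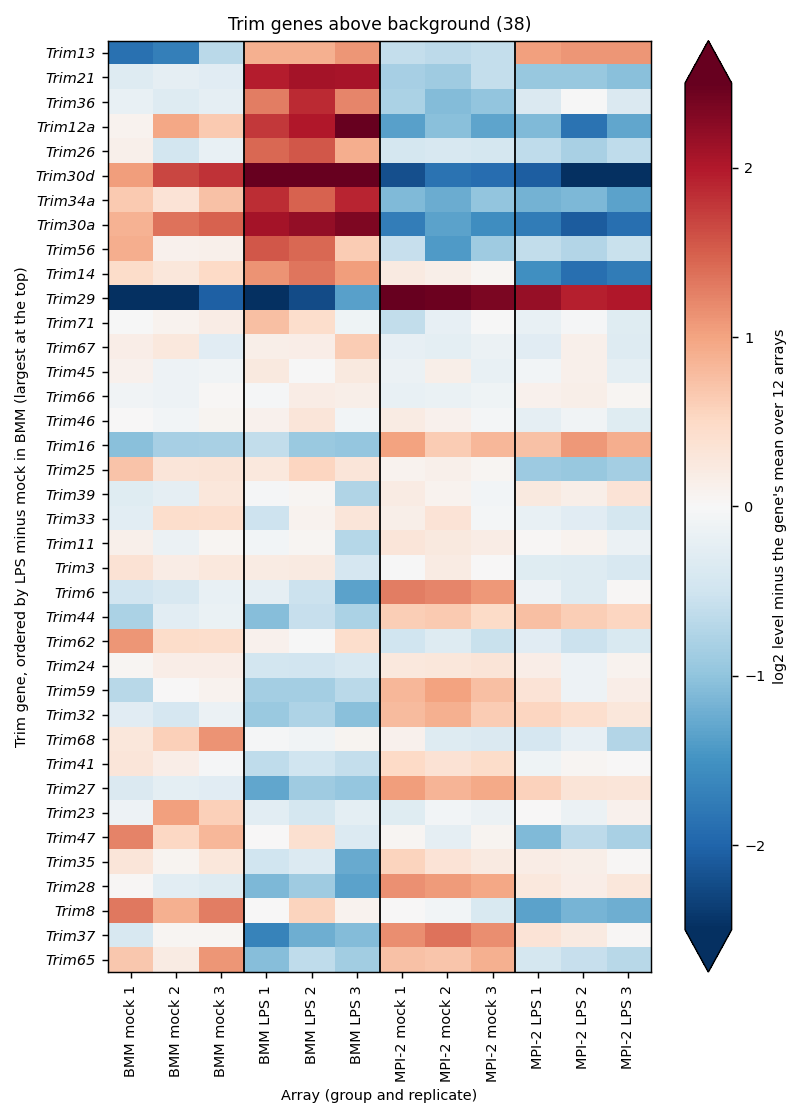
Log2 level minus the gene's own mean over 12 arrays for the 38 Trim genes above background (rows, ordered by their LPS difference in BMM) in each array (columns, by group). Trim13 goes from blue to red with LPS in both cell types. Trim36 does so in BMM, whereas its MPI-2 LPS arrays stay below its mean and are only less blue than MPI-2 mock. The rows of Trim30a and Trim30d are red in BMM and blue in MPI-2, and Trim29 shows the opposite.

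The nuclear co-repressors bind chromatin through a PHD finger and a bromodomain. Of 4 measured, LPS lowered 2 in BMM, Trim28 and Trim24 (15.4% of all genes were lower), and 1 in MPI-2, Trim28 (9.58% of all genes). It raised 0 in either by limma (at an unadjusted p under 0.05, 0 in BMM and 1 in MPI-2). Trim28, which silences endogenous retroviruses with KRAB zinc-finger proteins, was 6.62, 6.32 and 6.26 in BMM mock and 5.46, 5.69 and 5.25 in BMM LPS. In MPI-2 it was 7.73, 7.66 and 7.56 in mock and 6.85, 6.74 and 6.87 with LPS. It fell by a like amount in both, -0.94 ± 0.137 (adjusted p = 8.08e-05) and -0.83 ± 0.137 (adjusted p = 0.000513), and no groups overlapped.

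Trim24, a cofactor of nuclear receptors, was 5.24 to 5.35 in BMM mock and 4.71 to 4.79 in BMM LPS, a change of -0.57 ± 0.113 (adjusted p = 0.00117) that was -0.37 and called after a further quantile normalization and -0.31 and not called after cyclic loess. Its MPI-2 levels were 5.45 to 5.50 in mock and 5.06 to 5.36 with LPS, with no call. Trim33, which works with Smad proteins, was 6.85 to 7.55 in BMM mock, 6.59 to 7.42 in BMM LPS, 7.07 to 7.46 in MPI-2 mock and 6.67 to 6.93 in MPI-2 LPS and was called in no comparison.

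Of 8 measured Trim genes listed with the microtubule-binding COS box family, LPS raised 1 in each cell type, and the gene was Trim36 in both. This list held genes named Trim only. Mid1, a microtubule-bound ligase given below among relatives under another name, was not counted here and was also higher with LPS in BMM. Of all genes, 10.3% were higher in BMM and 5.17% in MPI-2. Trim36, a microtubule-associated ligase, was 4.77, 4.63 and 4.75 in BMM mock and 6.24, 6.82 and 6.17 in BMM LPS, and 4.18, 3.87 and 3.96 in MPI-2 mock and 4.60, 4.94 and 4.59 in MPI-2 LPS. It rose without overlap in both, by 1.69 ± 0.167 (adjusted p = 1.31e-06) and by 0.71 ± 0.167 (adjusted p = 0.00754). The MPI-2 call was lost without MPI-2 LPS replicate 2 (0.60). The rise was smaller in MPI-2, by -0.98 ± 0.235 (adjusted p = 0.00998).

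Trim37, a ligase of centrosomes and peroxisomes, was 4.99, 5.43 and 5.44 in BMM mock and 3.73, 4.17 and 4.30 in BMM LPS. In MPI-2 it was 6.55, 6.74 and 6.55 in mock and 5.73, 5.62 and 5.41 with LPS. Its changes were -1.22 ± 0.165 (adjusted p = 3.57e-05) and -1.03 ± 0.165 (adjusted p = 0.000386), with separate groups in both.

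Trim47, a RING ligase, measured 6.10, 5.39 and 5.70 in BMM mock and 4.88, 5.26 and 4.53 in BMM LPS, and 4.92, 4.64 and 4.93 in MPI-2 mock and 3.77, 4.21 and 4.05 in MPI-2 LPS. The changes were -0.84 ± 0.200 (adjusted p = 0.00506) and -0.82 ± 0.200 (adjusted p = 0.00971), with no overlap. The BMM change was -0.47 and not called with mock replicate 1 and LPS replicate 3 of BMM both left out, and the MPI-2 change was -0.70 and not called without MPI-2 LPS replicate 1. A further quantile normalization also ended the MPI-2 call (-0.60).

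A group of 5 members has NHL repeats, a C-terminal propeller fold that can bind RNA, or is listed with them. In BMM LPS raised 1 of the 5, Trim56, described above, and lowered 1, Trim32 (all genes: 10.3% and 15.4%). In MPI-2 all 5 were without a call for LPS. Trim32, a ligase known from inherited muscle disease, was 4.61, 4.47 and 4.75 in BMM mock and 3.97, 4.13 and 3.86 in BMM LPS, a change of -0.63 ± 0.128 (adjusted p = 0.00153) that was -0.39 and still called after cyclic loess. Its MPI-2 levels of 5.53 to 5.78 in mock and 5.18 to 5.43 with LPS had no call. The Trim56 call was the less firm of the pair, with 0.65 and no call without BMM LPS replicate 1, 0.68 without BMM mock replicate 2, 0.70 without BMM mock replicate 3 and 0.71 without BMM LPS replicate 2.

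The cell types also differed before LPS. In mock arrays 10 of 59 Trim genes were higher in MPI-2 than in BMM (16.9%, against 20.6% of all genes) and 16 were lower (27.1%, against 18%). With LPS 12 were higher (20.3%, against 22.5%) and 23 were lower (39%, against 21.6%). The median difference over the 59 was -0.15 in mock and -0.23 with LPS, beside -0.10 and -0.14 over all genes. Centring each array on its median moved the median of all genes to 0.08 and 0.02 and the split with LPS to 13 higher and 15 lower. Of the lower calls, 3 in mock and 8 with LPS were of genes under background by their mean.

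Trim29 was far higher in MPI-2. It lacks a RING finger and is reported as a restraint on innate responses in alveolar macrophages. It was 2.97, 3.12 and 3.58 in BMM mock and 2.97, 3.37 and 4.25 in BMM LPS, around background, against 8.11, 8.06 and 7.96 in MPI-2 mock and 7.79, 7.56 and 7.62 in MPI-2 LPS. Every MPI-2 array was more than 3 log2 units above every BMM array. Since the BMM mock mean was under background, the difference in mock is at least 4.68, the MPI-2 mean less the background level. The fitted difference was 4.82 ± 0.243 in mock (adjusted p = 3.34e-10) and 4.13 ± 0.243 with LPS (adjusted p = 1.41e-09).

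Trim16, linked to the autophagy of damaged endosomes and lysosomes, was 4.55, 4.76 and 4.77 in BMM mock, 4.98, 4.66 and 4.63 in BMM LPS, 6.60, 6.24 and 6.42 in MPI-2 mock and 6.33, 6.68 and 6.50 in MPI-2 LPS. The LPS and mock arrays overlapped within each cell type, and the cell types were separate. The differences were 1.72 ± 0.143 in mock (adjusted p = 9.5e-08) and 1.74 ± 0.143 with LPS (adjusted p = 6.40e-08).

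Trim44, which lacks a RING finger, was 5.13, 5.65 and 5.76 in BMM mock, 4.86, 5.34 and 5.13 in BMM LPS, 6.54, 6.58 and 6.39 in MPI-2 mock and 6.66, 6.54 and 6.46 in MPI-2 LPS. All MPI-2 arrays were above all BMM arrays, by 0.99 ± 0.165 in mock (adjusted p = 0.000161) and 1.44 ± 0.165 with LPS (adjusted p = 2.72e-06). Trim37, Trim28 and Trim27, whose array values are given above, were also higher in MPI-2 in both conditions. In mock they were higher by 1.33 ± 0.165 (adjusted p = 8.34e-06), 1.25 ± 0.137 (adjusted p = 2.19e-06) and 1.24 ± 0.131 (adjusted p = 1.45e-06), and with LPS by 1.52, 1.36 and 1.45. The Trim28 difference with LPS was 0.89 after a further quantile normalization and still called.

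Trim6 was higher in MPI-2 mock by 1.56 ± 0.212 (adjusted p = 2.24e-05), without overlap. With LPS its difference of 0.56 ± 0.212 came from overlapping groups, and it was 0.24 and not called without BMM LPS replicate 3 and 0.48 to 0.56 and not called without each of 5 other arrays. Trim13 was higher in MPI-2 mock by 0.80 ± 0.222 (adjusted p = 0.00905), a call lost after a further quantile normalization (0.57) and cyclic loess (0.37).

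**Figure D4:**
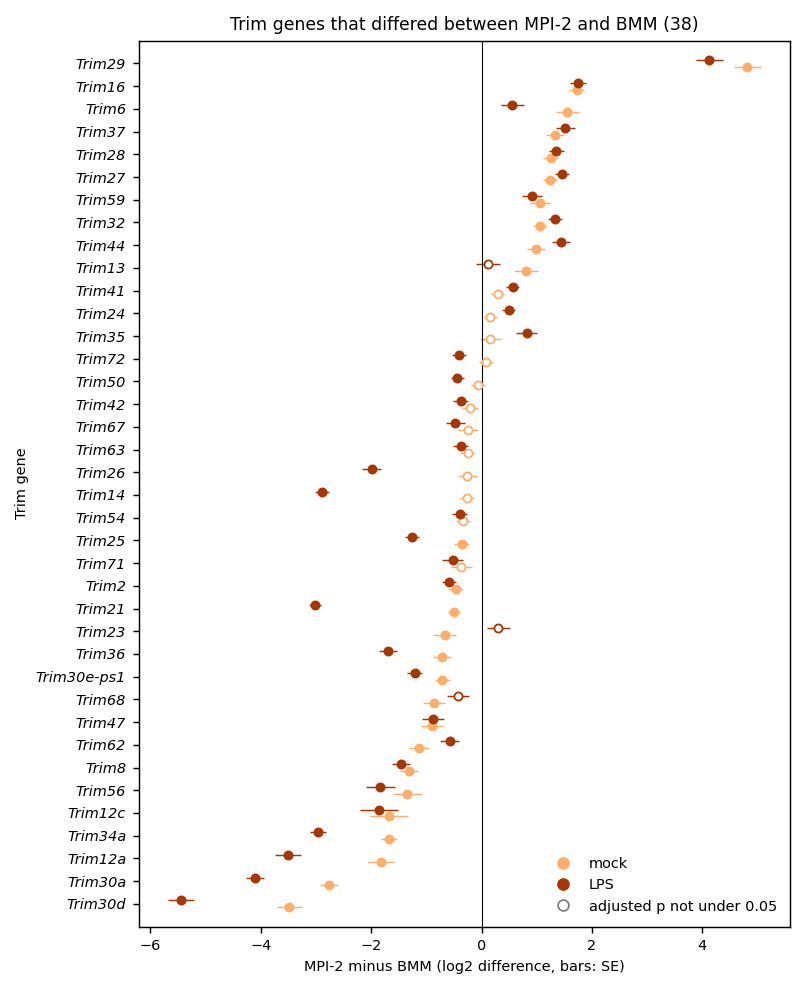
MPI-2 minus BMM as a log2 difference with bars of 1 SE, in mock (light) and LPS (dark), for the 38 Trim genes called in at least 1 of the 2 conditions; open points have an adjusted p not under 0.05. Trim29 stands at 4.82 and 4.13 on the right, and Trim30d at -3.48 and -5.45 on the left.

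The chromosome 7 list held the largest deficits of MPI-2. Of its 8 measured members 7 were lower and 1 was higher in MPI-2 mock, with a median of -1.68 (all genes: 18% lower and 20.6% higher). With LPS 6 were lower and 1 was higher, with a median of -2.99 (all genes: 21.6% and 22.5%). In mock, Trim30d was lower by -3.48 ± 0.228 (adjusted p = 6.35e-09) and Trim30a by -2.77 ± 0.164 (adjusted p = 1.98e-09). Trim12a differed by -1.82 ± 0.236 (adjusted p = 1.37e-05) and Trim34a by -1.68 ± 0.146 (adjusted p = 1.60e-07). These 4 genes were lower in MPI-2 before any stimulus was given. Trim12c was under background in MPI-2, so its mean was at least 0.70 higher in BMM mock and 0.95 higher in BMM LPS. Its fitted difference was -1.67 ± 0.345 in mock (adjusted p = 0.00107).

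With LPS the gaps of those 4 were larger. Trim30d differed by -5.45 ± 0.228 (adjusted p = 2.78e-11), Trim30a by -4.11 ± 0.164 (adjusted p = 1.63e-11) and Trim12a by -3.51 ± 0.236 (adjusted p = 6.66e-09). Trim34a differed by -2.96 ± 0.146 (adjusted p = 1.75e-10). The widening was tested as the difference of responses and was called for Trim30d, Trim30a, Trim12a and Trim34a, as given above.

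Trim21 and Trim14 differed little between the cell types in mock and much with LPS. Trim21 went from -0.50 ± 0.115 (adjusted p = 0.00253) to -3.02 ± 0.115 (adjusted p = 8.81e-12). Its mock difference was -0.91 after quantile normalization and -0.31 with centred arrays, called in both. Trim14 had no call in mock and differed by -2.89 ± 0.129 with LPS (adjusted p = 5.85e-11). Trim26 likewise had no call in mock and differed by -1.99 with LPS (adjusted p = 1.26e-07).

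Trim56 and Trim8 were lower in MPI-2 in both conditions. Trim56 differed by -1.35 ± 0.261 in mock (adjusted p = 0.000637) and -1.84 with LPS (adjusted p = 2.92e-05). Trim8 differed by -1.31 ± 0.164 in mock (adjusted p = 8.93e-06) and -1.45 with LPS (adjusted p = 2.46e-06). Trim25 differed by -1.26 with LPS (adjusted p = 1.08e-06). Its mock difference of -0.36 ± 0.132 (adjusted p = 0.0417) was -0.23 and not called without BMM mock replicate 1, and leaving out any 1 MPI-2 array also ended the call, with values of -0.34 to -0.38, as did centring the arrays (-0.17).

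Many members known from restricted tissues were near or under background. In 15 Trim genes no group mean was above it, among them Trim10 and Trim58, known from red-cell precursors, Trim55 and Trim72, known from muscle, and Trim9, known from neurons. Their arrays ran from 2.30 to 3.58. None of the 5 measured muscle members was above background by its mean. Yet 2 of that list, Trim50 and Trim72, were called higher with LPS in BMM (10.3% of all genes were). With LPS, Trim50, Trim54, Trim63 and Trim72 were called lower in MPI-2 than in BMM (4 of the 5, against 21.6% of all genes). Each of these 4 calls was lost after a further quantile normalization, after cyclic loess and after centring the arrays. Trim50, placed in this list but better known from the stomach, was 3.08, 2.92 and 3.23 in BMM mock and 3.66, 3.69 and 3.86 in BMM LPS, so that its LPS arrays alone were above background, with a fitted difference of 0.66 ± 0.121 (adjusted p = 0.000624). Trim72, a membrane-repair protein, differed by 0.40 ± 0.126 (adjusted p = 0.0283), a call that ended when mock replicate 1 (0.40), mock replicate 3 (0.38) or LPS replicate 1 (0.28) was left out. Both BMM groups of Trim72 were under background, so its difference is not one between measured levels.

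Genes of the interferon pathway are given for comparison, since Trim genes such as Trim21 and Trim30a are known interferon targets. Of 33 measured genes of that list, LPS raised 25 and lowered 1 in BMM (all genes: 10.3% and 15.4%), with a median of 2.03. In MPI-2 it raised 10 and lowered 7 (all genes: 5.17% and 9.58%), with a median of 0.14. For 23 the response was lower in MPI-2 (6.27% of all genes), with a median difference of -1.55. The list was thus not silent in MPI-2: the mean of Ifih1 went from 4.95 in mock to 7.61 with LPS, and that of Rsad2 from 4.13 to 5.38. Oas2 went down there, from 6.47 to 5.62. These genes were named after their values were seen. Ifnb1, which encodes interferon beta, was 3.07, 2.91 and 2.56 in BMM mock and 8.40, 8.80 and 9.69 in BMM LPS. Its BMM mock arrays were under background, so the rise was at least 5.60, with a fitted value of 6.12 ± 0.245 (adjusted p = 6.22e-11). In MPI-2 it stayed under background, at 2.36 to 2.78 in mock and 2.58 to 2.79 with LPS (adjusted p = 0.842).

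Irf7, the transcription factor that amplifies interferon production, was 6.15 to 7.07 in BMM mock and 8.97 to 9.32 in BMM LPS, a rise of 2.51 ± 0.204 (adjusted p = 1.65e-07). In MPI-2 it was 3.68 to 4.09 in mock and 3.51 to 3.98 with LPS, with no call (adjusted p = 0.798). Like Trim30a and Trim30d, it was lower in MPI-2 before LPS, by -2.79. Whether interferon acted on the Trim genes within the window was not tested.

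The 14 genes listed as relatives under another name were all measured, and not all of them carry the RING, B-box and coiled-coil layout. LPS raised 5 and lowered 0 of them in BMM by limma (0 lower at an unadjusted p under 0.05; all genes: 10.3% and 15.4%), and raised 1 and lowered 3 in MPI-2 (all genes: 5.17% and 9.58%). The gene raised in both was Spryd7, named after its values were seen, with means of 7.29 in BMM mock, 8.69 in BMM LPS, 7.12 in MPI-2 mock and 9.16 in MPI-2 LPS. Pml, the organizer of nuclear bodies, was 6.38, 5.97 and 6.32 in BMM mock and 7.92, 8.07 and 7.59 in BMM LPS, and 6.15, 6.27 and 5.93 in MPI-2 mock and 4.73, 4.70 and 4.97 in MPI-2 LPS. Like Trim14, it was alike in both mock groups and moved apart, by 1.64 ± 0.157 in BMM (adjusted p = 1.01e-06) and -1.32 ± 0.157 in MPI-2 (adjusted p = 2.53e-05).

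Mid1, a microtubule-bound ligase, also moved in opposite directions, by 1.51 ± 0.222 in BMM (adjusted p = 8.0e-05) and -1.05 ± 0.222 in MPI-2 (adjusted p = 0.00369). Its arrays were 6.18 to 6.92 in BMM mock and 7.79 to 8.48 in BMM LPS, and 5.77 to 6.11 in MPI-2 mock and 4.63 to 5.32 in MPI-2 LPS, with no overlap. Mefv, which encodes the inflammasome protein pyrin, rose from 4.35 to 4.82 in BMM mock to 6.11 to 7.15 with LPS, by 2.02 ± 0.208 (adjusted p = 2.21e-06). In MPI-2 it stayed under background, at 2.58 to 3.08.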

How the data were processed

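The authors deposited log2 expression values per probe set and array, 34760 probe sets in 12 arrays, made with RMA and affy per the submitters' processing notes. Their versions were not given in the sources used here, nor was it stated whether the arrays were normalised in 1 run. RMA brings the arrays normalised together to a common distribution of values, so an overall change in newly made RNA would not show. The spread of the genes' values still differed between the arrays' groups. Probe sets naming 1 gene (21640) were kept, those naming several (1321) or none (11799) were not used for genes, and the probe set with the highest mean stood for each of 19937 genes. Symbols were updated through RefSeq's GRCm38.p6 table (19855 matched).

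For every gene, limma 3.58.1 (R 4.3.3) estimated the 4 group means from the 12 arrays, leaving 8 residual degrees of freedom to which its prior added 6.99. Promoter windows were searched for 3 motifs on both strands. It gave 5 comparisons, each Benjamini-Hochberg adjusted over all genes with a threshold of 0.05. The code was tested on simulated data. Every adjusted p is limma's. The number of arrays limits the precision.

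Given in every array were, per comparison, up to 6 members with the largest called increase and decrease above background, up to 8 called for the difference of responses, and Trim25, Trim21, Trim28, Trim30a, Trim8 and Trim27. A companion gene of the rule is not reported here. The members, gene lists and alternatives were chosen with earlier results of these data known. Alternatives were normalization, filtering, array weights, the spread used, a replicate block and leaving out arrays. The replicate numbers of the titles, from which the descriptions of the MPI-2 mock arrays differ, were not taken to pair samples: deviations of same-numbered mock and LPS arrays correlated at 0.242, -0.092 and -0.007 in BMM and 0.05, -0.154 and -0.088 in MPI-2.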

Additional observations from a re-analysis of the deposited data

Results flagged for a closer look

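The LPS response of 11 Trim genes differed between the cell types by a test of that difference (MPI-2 minus BMM, log2, limma). It was lower in MPI-2 for Trim14 (-2.63), Trim21 (-2.52), Trim30d (-1.96), Trim26 (-1.73), Trim12a (-1.69), Trim30a (-1.34), Trim34a (-1.28), Trim6 (-0.997), Trim36 (-0.98) and Trim25 (-0.90). It was higher for Trim23 (0.97). Trim6 and Trim23 lost their calls when any 1 of 10 arrays was left out, with values of -0.76 to -1.08 and 0.70 to 1.04.

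A probe set left out because it names both Gm38525 and Trim30b read 3.51, 3.57 and 3.71 in BMM mock and 6.91, 7.17 and 7.04 in BMM LPS, a difference of 3.44 with separate groups. In MPI-2 it was under background, with means of 3.10 in mock and 2.79 with LPS. Which of the 2 genes it measured was not tested.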

How the results depend on the processing

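Of 112 calls of members over the 5 comparisons, 80 held under every alternative in which they were fitted, and none changed direction. Members under background by their mean were left out of the run on genes above background, so their calls were not scored there. With the replicate block (numbers of the titles) the counts were 13 higher and 14 lower for LPS in BMM, 2 and 11 in MPI-2, 1 and 10 for the difference of responses, 10 and 15 for MPI-2 against BMM in mock, and 12 and 23 with LPS; the lost call was Trim25 in mock. The 2 increases in MPI-2 became 5 with array weights and ranged from 1 to 2 without 1 array. The 11 decreases in MPI-2 became 17 when the 6 arrays compared were fitted alone, 8 after a further quantile normalization and 9 after cyclic loess. The 14 decreases in BMM became 10 after cyclic loess. The 12 higher calls for MPI-2 against BMM with LPS became 8 after a further quantile normalization. The 1 positive difference of responses became 0 after quantile normalization, cyclic loess or centring, ranged from 0 to 2 without 1 array, and became 2 with mock replicate 1 and LPS replicate 3 of BMM both left out. The 23 lower calls with LPS became 15 with centred arrays and 15 among genes above background alone. The causes were not tested. Signal near background limited 21 members.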

Other observations

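A probe set naming Trim5, Trim12c and Trim12a together, not used for any gene, had means of 6.05 in BMM mock and 6.82 in BMM LPS, and of 4.14 and 4.25 in MPI-2. A further probe set naming Trim5 and Trim12c had means of 5.71 and 5.58 in BMM and of 3.06 and 2.84 in MPI-2.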
